A study of Mus musculus with 34 samples.

Results

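The horizontal series of a newborn mouse brain was examined for genes of its middle levels and for genes high at both of its ends. It consisted of 8 fractions, from fraction 1 to fraction 8, out of 34 fractions in the whole series, and every fraction was hybridised to 1 single-colour microarray. Middle fractions 3, 4, 5 and 6 were set against outer fractions 1, 2, 7 and 8. The fraction numbers of both groups have the same mean, so that a straight gradient along the axis cancels in their difference. The brain came from 1 male C57BL/6J mouse at 3 days of age, given no treatment in the labels, and the coronal series (15 fractions) and sagittal series (11 fractions) came from 1 other mouse each, of the same strain, sex and age. A fraction pooled 100 slices of 5 μm, a slab of 500 μm. Fractions are positions in 1 brain and not replicates, so the spread within a group holds the anatomy as well as the error of measurement, and p-values compare positions in this mouse only.

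The surface of the brain is wrapped in meninges, sheets of fibroblasts and vessels with their own resident macrophages. Its inner cavities, the ventricles, are lined by ependymal cells whose beating motile cilia move cerebrospinal fluid, and they hold the choroid plexus, the epithelium that secretes this fluid. A horizontal slab through the top or the bottom of the brain therefore takes in much surface, and a slab through the middle cuts the deep cavities. In pooled slabs, fewer cells of a type and less RNA per cell cannot be told apart.

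On the horizontal arrays 33371 to 35237 spots were well above background. Their mean was 34384 ± 770 (SD, n = 4) in the middle and 34263 ± 524 (SD, n = 4) in the outer fractions, a difference within the spread (two-sided exact permutation test, p = 0.886, the smallest possible being 0.0286). Brain tissue was present by its markers: all 17 genes of a neocortex list were measured, and their mean, each gene centred on its own mean, ran from 0.57 in fraction 2 to -0.60 in fraction 8, whereas that of a hypothalamus list was highest in fraction 8 (2.35). The labels do not say at which end the numbering starts, and by these markers fraction 8 lay at the ventral end. Fraction 1 stood apart from its neighbour. It held genes of ventral and posterior brain that fraction 2 lacked: Lhx8, a forebrain cholinergic factor, read -0.72 against -5.49, Hoxb5, a hindbrain Hox gene, 0.83 against -5.43, and Isl1 -2.03 against -7.09 (log2 values). Fractions 3 and 4 were hybridised on another slide than the other 6 and scanned in another batch. Both lay above the other 6 fractions in 9.11% of probes and below them in 9.99%, while fractions 5 and 6, a pair on the main slide, did so in 2.72% and 3.9%. Counts over all genes, and those of some lists, are therefore given with and without fraction 1, and within the slide that held fractions 5 and 6 and all outer fractions. For the other lists only the counts over all 8 fractions are given. How much slide and fraction 1 add to a result was not tested.

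No probe passed the test of middle against outer fractions. Of 33460 probes well above background in at least 2 of the 8 fractions, limma called 0 higher in the middle and 0 higher in the outer fractions at an adjusted p under 0.05. At an unadjusted p under 0.05 it gave 1799 probes (5.38%) and 2253 probes (6.73%), and over genes 882 (5.6%) and 1025 (6.51%). Genes are described below by whether the 4 values of one group all lay above the 4 of the other. In probes this held for 624 (1.86%) with the middle above and for 802 (2.4%) with the outer fractions above, or 1770 (5.29%) and 2540 (7.59%) within 1 slide. Over 15757 genes, with 1 probe for each, this held for 332 genes higher in the middle (2.11% of all) and for 416 genes higher at both ends (2.64%). Without fraction 1 these counts were 461 (2.93%) and 737 (4.68%), and within 1 slide, with fractions 5 and 6 as the middle, 959 (6.09%) and 1265 (8.03%). Of the 332 middle genes 260 were well above background in all 8 fractions and 26 in none of the outer ones. Of the 416 genes of both ends 380 were so in all 8 and 8 in none of the middle ones.

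Genes of motile cilia were high in the middle levels. In the list of ependyma and cilia, 11 of 12 genes were measured, 6 of the 11 had all middle above all outer fractions, none the reverse (background 2.11% and 2.64% as above), and the median difference was 1.33 on the log2 scale against -0.03 over all genes. Tmem212, a membrane protein gene of multiciliated cells, read -2.76, -7.21, -1.86, -0.92, -0.07, -0.93, -2.63 and -3.86 in fractions 1 to 8. The 4 middle values lay above all outer ones, and fraction 5 was highest. Only 3 of the 4 outer fractions were well above background, so the size of the measured difference, 3.17 ± 0.95 (SE, limma adjusted p = 0.358), rests in part on a value at background. Ccdc153, another gene of multiciliated cells, read -1.21, -4.80, 0.15, 0.71, 1.34, 0.42, -1.25 and -1.99, again with its peak in fraction 5 and with 3 of 4 outer fractions well above background, and differed by 2.97 ± 0.76 (SE, adjusted p = 0.355). Foxj1, the transcription factor that switches on the motile cilia programme, read -0.72, -1.79, 0.14, 0.54, 1.37, 0.70, 0.05 and -0.69. Its lowest middle value, in fraction 3, was only just above its highest outer value, in fraction 7. Its difference was 1.47 ± 0.35 (SE, adjusted p = 0.353), and it was 1.82 within 1 slide and 1.49 without fraction 1. Within 1 slide 9 of the 11 list members did not overlap, against 6.09% of all genes with the middle above. Without fraction 1 again 6 did not, against 2.93%.

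A like order of fractions was seen in some of the genes that build the axoneme, the microtubule core of a cilium. Dynlrb2, a dynein light chain, read 0.23, -2.09, 1.42, 1.95, 2.61, 2.02, 0.94 and 0.39, with no overlap of the groups and a difference of 2.14 ± 0.53 (SE, adjusted p = 0.353). Dnah6, an inner arm dynein heavy chain, lay between -1.53 and -0.07 in the middle and between -3.65 and -2.04 outside it. Odf3b and Hoatz, also ciliary or flagellar genes, differed by 2.09 and 2.38. Families were counted by symbol after the data had been seen. Of 24 measured Cfap genes, for cilia and flagella associated proteins, 8 had all middle above all outer fractions and none the reverse (median 0.68). The shares over all genes were 2.11% and 2.64%. At an unadjusted limma p under 0.05, 13 were higher in the middle, against 5.6% of all genes. Of 8 axonemal dynein heavy chains 2 did not overlap (Dnah2 and Dnah6) and 6 were higher in the middle, while Dnah17 differed by -0.63. Of 7 radial spoke genes (Rsph) 1 did not overlap and 4 were higher in the middle, with a median of 0.11. Of 14 Ift genes, whose products carry cargo in all cilia, motile or not, none had all middle above all outer fractions (median -0.02). Ift52 had the reverse (-0.16), and 2 Ift genes were higher in the middle and 0 lower at an unadjusted p under 0.05. Cfap65 was not well above background in any outer fraction and was at least 2.38-fold higher in the middle.

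Regulators of multiciliated cell fate were mixed. In a list of 14 written after the data had been seen, 9 were higher in the middle and 5 lower (median 0.40). Of the 14, 6 had all middle above all outer fractions and none the reverse, against 2.11% and 2.64% of all genes. Foxn4 differed by 2.77 ± 0.79 (SE, adjusted p = 0.356) and read -4.03 and -7.26 in fractions 1 and 2, -1.98 in fraction 3 with its peak in fraction 5, and -2.54 and -3.51 in fractions 7 and 8, where 3 of the 4 outer fractions were well above background. Deup1, a gene of the deuterosome on which these cells copy their centrioles, differed by 1.83, Ccno, a cyclin-like regulator of the same process, by 1.80, and Myb by 1.53. Gmnc, the geminin family member at the head of this programme, was well above background in 2 middle fractions and in no outer fraction, so its difference has no measured lower side.

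**Figure D1:**
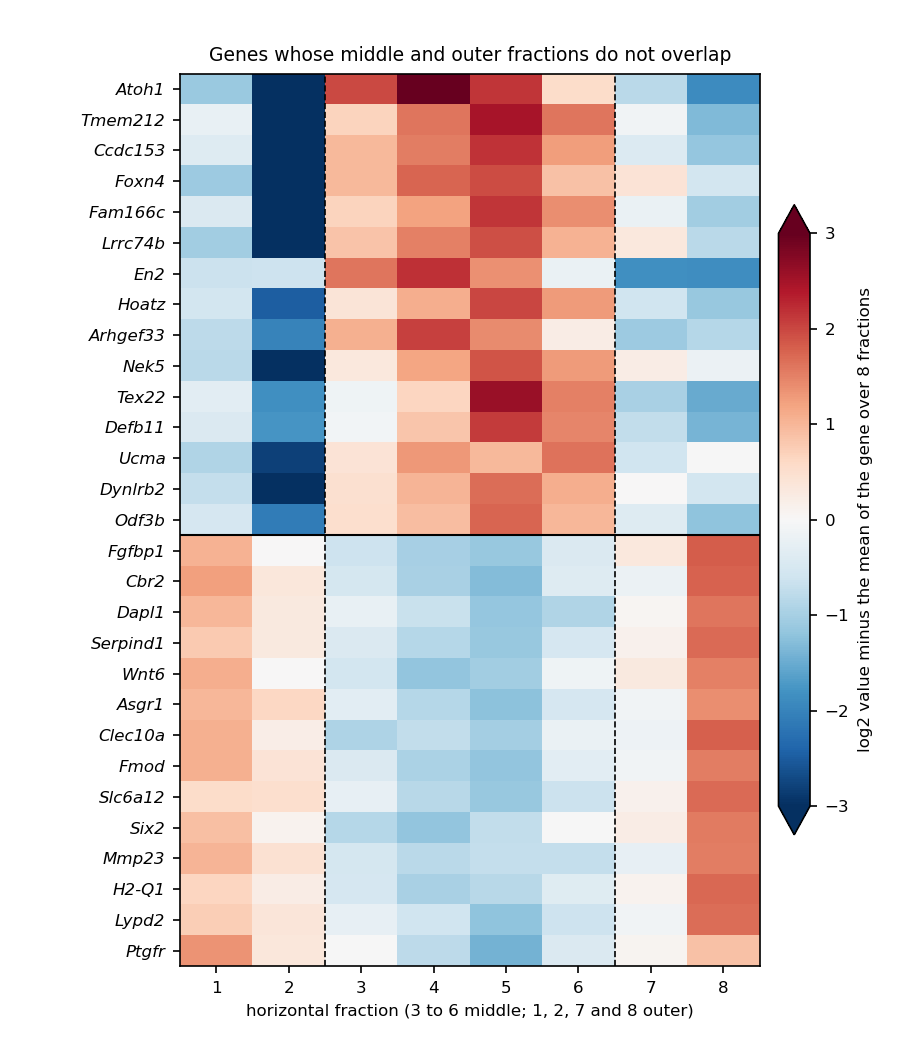
Colour gives the log2 value of each gene less its own mean, for genes among the 15 with the largest difference in each direction (rows) in the 8 horizontal fractions (columns). Dashed lines bound the middle fractions 3 to 6, and the solid line separates middle genes above from genes of both ends below. Of the 15 middle genes 14 were lowest in fraction 2, and the genes of both ends shown were highest in fraction 8, other than Ptgfr, which was highest in fraction 1.

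Promoters of middle genes are shown here because they hold a match to a motif linked with cilia, and they were chosen for that match. The windows run from 250 bases before to 50 after the start of the gene, in its own direction, and come from RefSeq, build GRCm38.p6. They were searched on both strands for TGTTTAC, a core bound by many forkhead factors, for the X-box, a motif of the kind that RFX factors bind, and for CCAAT. Capitals mark the match in each.
Fam166c promoter, GRCm38.p6 chr5:30465827-30466126, plus strand: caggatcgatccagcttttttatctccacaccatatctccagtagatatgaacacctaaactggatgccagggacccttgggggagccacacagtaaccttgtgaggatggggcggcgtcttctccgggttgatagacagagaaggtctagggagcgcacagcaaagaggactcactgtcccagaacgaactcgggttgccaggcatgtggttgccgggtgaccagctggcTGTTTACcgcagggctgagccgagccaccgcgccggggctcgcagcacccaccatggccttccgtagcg
Lrrc74b promoter, GRCm38.p6 chr16:17561198-17561497, minus strand: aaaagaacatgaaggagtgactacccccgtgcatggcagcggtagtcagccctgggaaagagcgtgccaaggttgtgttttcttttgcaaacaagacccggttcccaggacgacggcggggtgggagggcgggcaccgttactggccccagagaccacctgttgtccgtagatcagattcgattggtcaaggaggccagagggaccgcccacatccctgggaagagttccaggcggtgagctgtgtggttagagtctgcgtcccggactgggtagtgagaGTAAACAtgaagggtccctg
Cfap43 promoter, GRCm38.p6 chr19:47837312-47837611, minus strand: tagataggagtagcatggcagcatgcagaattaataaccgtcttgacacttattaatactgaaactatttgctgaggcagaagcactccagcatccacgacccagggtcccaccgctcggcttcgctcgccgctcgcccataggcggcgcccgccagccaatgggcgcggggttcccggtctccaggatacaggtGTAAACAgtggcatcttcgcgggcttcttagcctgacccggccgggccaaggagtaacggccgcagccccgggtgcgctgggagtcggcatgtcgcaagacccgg
Iqca promoter, GRCm38.p6 chr1:90153387-90153686, minus strand: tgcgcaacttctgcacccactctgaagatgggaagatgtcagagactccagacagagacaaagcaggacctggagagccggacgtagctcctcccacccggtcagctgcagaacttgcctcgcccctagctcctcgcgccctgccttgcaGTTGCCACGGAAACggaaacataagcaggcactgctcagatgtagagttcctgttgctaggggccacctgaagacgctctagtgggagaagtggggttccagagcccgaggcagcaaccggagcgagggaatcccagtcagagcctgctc
Fam166c holds the forkhead core as written, Lrrc74b and Cfap43 hold it on the other strand, and Iqca holds the X-box. Their differences were 2.70 for Fam166c, 2.69 for Lrrc74b, 1.54 for Cfap43 and 1.71 for Iqca, with 3 of 4 outer fractions well above background for Fam166c, Lrrc74b and Iqca and 2 for Cfap43. Promoters were found for 12473 of the 15757 genes. The forkhead core was in 5.43% of 258 promoters of middle genes, in 4.49% of 312 promoters of genes of both ends and in 3.21% of all. The X-box was in 1 promoter of the middle genes (0.388%), in 3 of the genes of both ends (0.962%) and in 0.617% of all, and CCAAT in 46.5%, 36.2% and 42.5%. Of 8 genes of the ependyma and cilia list with a promoter, 1 held the forkhead core and 0 the X-box. A match is a description of these letters only.

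Choroid plexus genes were high in fraction 5, the peak of 10 of the 13. All 13 genes of the list were measured and 12 were higher in the middle (median 0.98), but only Calml4 had all 4 middle fractions above all outer ones. Ttr, the thyroid hormone carrier transthyretin, read 5.61, 3.59, 5.60, 6.67, 7.80, 7.42, 5.45 and 4.48. Fractions 4 to 6 were above every outer fraction, and fraction 3 was just below fraction 1. Folr1, the folate receptor of this epithelium, read 0.86, -0.89, 0.68, 1.75, 3.27, 2.70, 0.44 and -0.27, with the same order. Without fraction 1 the groups of both genes parted, and 3 of the 13 did not overlap, against 2.93% of all genes with the middle above. Within 1 slide 11 of 13 did not, against 6.09%, and the list median was 2.17. Kl and Clic6, 2 further members, overlapped in the full comparison, with differences of 0.32 and 1.23.

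Cerebellar genes were highest on average in fraction 4. Of 16 measured list genes 5 had all middle above all outer fractions (Atoh1, Neurod1, Skor2, Car8 and En2) and none the reverse. The shares over all genes were 2.11% and 2.64%. In all, 14 of the 16 were higher in the middle (median 0.97). Atoh1, which specifies the granule neuron lineage, read -4.36, -7.25, -1.26, -0.09, -1.10, -2.69, -4.04 and -5.12. The groups did not overlap, fraction 4 was highest, and the measured difference was 3.91 ± 0.81 (SE, adjusted p = 0.350), with only 2 of the 4 outer fractions well above background. Within 1 slide it was 3.30. En2, an engrailed factor of midbrain and cerebellum, read -0.52, -0.50, 1.73, 2.31, 1.50, -0.09, -1.72 and -1.75. Fraction 6 lay close to the outer fractions and still above them, and the difference was 2.49 ± 0.38 (SE, adjusted p = 0.322). Neurod1, a differentiation factor of granule neurons, was highest in fraction 4 (0.89) with a difference of 1.22, and Car8, a gene of Purkinje cells, likewise (0.66) with 1.35. Skor2, a Purkinje cell factor, was not well above background in any outer fraction and was at least 2.65-fold higher in the middle.

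The midbrain list held 3 genes of 19 with all middle above all outer fractions, against 2.11% of all genes. In Foxa2 and Pitx3 fraction 3 was only just above the highest outer value. For Foxa2 both values were at background, so their order says nothing. The list median was 0.54, and it was -0.03 without fractions 1 and 8. Foxa2, a factor of the floor plate and of dopamine neurons, read -5.28, -7.25, -5.03, -1.14, -0.44, -1.39, -5.30 and -5.11. It was well above background in fractions 4 to 6 only and was at least 8.54-fold higher in the middle by the mean of all 4 fractions (adjusted p = 0.355). Pitx3, a factor of midbrain dopamine neurons, was high in fractions 5 (-2.15) and 6 (-1.80), while fractions 3 and 4 lay at -3.17 and -2.99 and the outer fractions between -3.47 and -3.26. Its difference was 0.85. The third was En2.

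Among forebrain lists the thalamus had 2 of 17 genes with all middle above all outer fractions (median 0.44). Ntng1, the axon guidance gene netrin G1, read 0.35, 0.96, 1.66, 2.09, 2.32, 1.58, 1.39 and 1.04, with fraction 6 just above fraction 7, and differed by 0.98. Slitrk6, a membrane protein gene of thalamic neurons, differed by 1.24. The habenula list had 1 of 10, Nr4a2, an orphan nuclear receptor that also marks dopamine neurons and the claustrum. It was highest in fraction 3 (3.67), read 2.91 in fraction 6, and lay between 1.35 and 2.55 outside, a difference of 1.29. The septum list had 1 of 11 (Zic4, 1.04) and the hindbrain list 1 of 23 (Tlx3, well above background in 2 middle fractions only). Over all genes 2.11% had groups apart in this direction, so 1 gene in such a list says little about its region. Within 1 slide, which leaves out fractions 3 and 4, 13 of 23 hindbrain genes lay above all outer fractions, against 6.09% of all genes. The list median was 2.20 there, against -0.11 over all 8 fractions. The centred list mean was -2.5 in fraction 2, -2.85 in fraction 3 and -0.89 in fraction 4, and 1.89 and 2.00 in fractions 5 and 6. Slide and position cannot be told apart in this change. No gene of the striatum, hippocampus or olfactory bulb lists had groups that did not overlap.

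Cell cycle genes were higher in the middle by a small amount, most in fraction 4. All 19 measured members were higher, with a median of 0.24 (0.15 within 1 slide). Of these 4 did not overlap (Mki67, Top2a, Ccnb1 and Mcm6), against 2.11% of all genes with the middle above. Along the fractions the centred list mean was 0.01, -0.14, 0.05, 0.49, 0.16, -0.10, -0.30 and -0.16. Fractions 3 and 4 were on the other slide, as was coronal fraction 12, whose list mean (0.19) exceeded both its neighbours (-0.27 and -0.01). Sagittal fractions 10 and 11, also on that slide, read 0.15 and -0.09. How much the slide adds to these values was not tested. Mki67, a protein of dividing nuclei, read 2.21, 1.91, 2.76, 3.18, 2.84, 2.46, 2.25 and 2.03. Its groups were close but apart, with fraction 4 highest, and the difference was 0.71 ± 0.17 (SE, adjusted p = 0.353). Of 18 genes of newborn neurons and the ventricular zone 3 did not overlap, among them Insm1 (1.05), a factor of committed progenitors, highest in fraction 4, and Egfr (0.61), the growth factor receptor of dividing progenitors, highest in fraction 3. The list median was 0.11, and the share over all genes was 2.11% as above.

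Genes of the meninges were high at both ends. All 21 genes of the list of meninges and fibroblasts were measured, and all were lower in the middle (median -0.99). Of these 13 had all outer above all middle fractions, against 2.64% of all genes. Fmod, fibromodulin, a small proteoglycan that binds collagen, read 1.47, 0.83, -0.03, -0.53, -0.77, 0.11, 0.31 and 1.95. Values fell from fraction 1 to fraction 5 and climbed again to fraction 8, and the groups were separated by the step from fraction 6 to fraction 7. The difference was -1.45 ± 0.38 (SE, adjusted p = 0.355), with -1.47 within 1 slide and -1.34 without fraction 1. Foxc2, a forkhead factor of meningeal mesenchyme, read 0.31, -0.63, -1.41, -1.65, -1.47, -0.75, -0.66 and 0.87. Fraction 6 was just below fraction 7, and the difference was -1.29 ± 0.37 (SE, adjusted p = 0.358). Ptgds, prostaglandin D synthase, read 8.84, 8.50, 7.84, 7.29, 7.14, 7.96, 8.36 and 8.64, a difference of -1.03. Crabp2 and Aldh1a2, of retinoic acid handling, differed by -0.86 and -1.15, and the transporters Slc22a6 and Slc6a13 by -1.30 and -1.24. Without fraction 1 again 13 genes did not overlap, against 4.68% of all genes, and within 1 slide 16, against 8.03%. Without fractions 1 and 8 the list median was -0.58, and the difference was -0.88 for Fmod and -0.68 for Foxc2.

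Members of the list did not all follow 1 course. Col1a1, the collagen of fibroblasts and bone, read 3.93, 3.32, 3.24, 2.89, 3.48, 4.26, 5.04 and 5.81. It overlapped, because fraction 6 lay above fractions 1 and 2, and its difference was -1.06. Dcn, decorin, read 4.92 in fraction 1 and 4.69 in fraction 8, with fraction 7 (3.83) below fraction 3 (4.01). The bone and cartilage list, measured for 10 genes, was highest in fraction 6 and had no gene with groups apart (median -0.00). Of 35 measured collagen genes, counted by symbol after the data had been seen, 4 were higher at both ends with no overlap (Col3a1, Col5a1, Col6a1 and Col6a2) and 1 in the middle (Col4a4, a basement membrane collagen). Over all genes these shares were 2.64% and 2.11%.

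Among the genes with the largest differences at both ends were secreted and signalling factors. Fgfbp1, a carrier that releases fibroblast growth factors from the matrix, read -1.05, -2.10, -2.71, -3.10, -3.23, -2.54, -1.79 and -0.29. All outer values exceeded all middle ones, and the difference was -1.59 ± 0.37 (SE, adjusted p = 0.353). Wnt6, a Wnt ligand, read 0.95, -0.13, -0.68, -1.32, -1.20, -0.28, 0.16 and 1.36, with a difference of -1.46, in which fractions 2 and 6 nearly met. Six2, a homeobox factor of mesenchyme, differed by -1.39. In a list of 17 mesenchymal and meningeal regulators written after the data had been seen, 15 were measured (median -0.79). Of these 6 were higher at both ends without overlap, among them Foxc2, Foxd1, Six2 and Osr1, and none in the middle. The shares over all genes were 2.64% and 2.11%. Slc6a12, a betaine and GABA transporter, differed by -1.43 and Serpind1, a thrombin inhibitor, by -1.46.

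Genes of the macrophages of the brain borders were highest in fractions 1 and 8. The centred mean of a list of 12 was 0.90, 0.24, -0.23, -0.59, -0.90, -0.38, -0.25 and 1.22 along the fractions. Outer fraction 7 was thus no higher than middle fraction 3. Without fraction 1 the list median was -0.90. Cbr2, a carbonyl reductase of border macrophages, read 1.81, 0.91, 0.05, -0.39, -0.73, 0.19, 0.38 and 2.34, with no overlap and a difference of -1.58 ± 0.45 (SE, adjusted p = 0.356). Clec10a, a lectin of the same cells, read -0.71, -1.58, -2.71, -2.52, -2.81, -1.97, -1.94 and 0.01. Here fractions 6 and 7 differed by little, and fraction 8 stood well above the rest. In the list of 12 measured border macrophage genes, written after the data had been seen, all were lower in the middle (median -1.03). Of these 4 did not overlap (Pf4, Cbr2, Clec10a and Dab2), against 2.64% of all genes. All 12 had an unadjusted limma p under 0.05, against 6.51% of all genes in that direction. Of 17 measured microglia genes only Pf4, which border macrophages also express, had groups apart (median -0.42). Of the 17, 13 were lower in the middle, 6 with an unadjusted p under 0.05, Tmem119, a microglial membrane protein, by -0.84, and 4 were higher. Among those 4 were the following. P2ry12, the purinergic receptor that defines microglia, read -1.48, -2.06, -1.74, -1.33, -1.59, -1.55, -1.87 and -1.19, and Cx3cr1, the fractalkine receptor, lay between 2.52 and 3.43. Their differences were 0.10 ± 0.20 and 0.04 ± 0.13 (SE), both within the spread. Retnla, a gene of alternatively activated macrophages, was not well above background in the middle, read 0.29 in fraction 8 and -3.91, -5.91 and -4.18 in fractions 1, 2 and 7, so that fraction 8 stood apart from the rest.

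Hypothalamic genes had the lowest median of all lists, -1.40 over 19 genes, with a profile that climbed towards fraction 8. Avp, vasopressin, read -1.06, -4.24, -5.96, -5.48, -4.25, 0.17, 1.31 and 5.16, so that fraction 6 lay above fractions 1 and 2. Pomc, the precursor of melanocortins, had all outer above all middle fractions, but 1.90 in fraction 8 stood against 0.19 to 0.51 in the other outer fractions and -0.10 to 0.08 in the middle. Rax, a retinal and hypothalamic homeobox factor, differed in that both ends were high. It read -4.02, -3.45, -6.31, -5.61, -6.02, -6.57, -3.69 and -2.56, was well above background in all 4 outer fractions and in no middle fraction, and was at least 3.46-fold higher at both ends (adjusted p = 0.269). Endothelial genes gave 1 gene of 18 (Pecam1, -0.28), against 2.64% of all genes, and a median of -0.15.

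**Figure D2:**
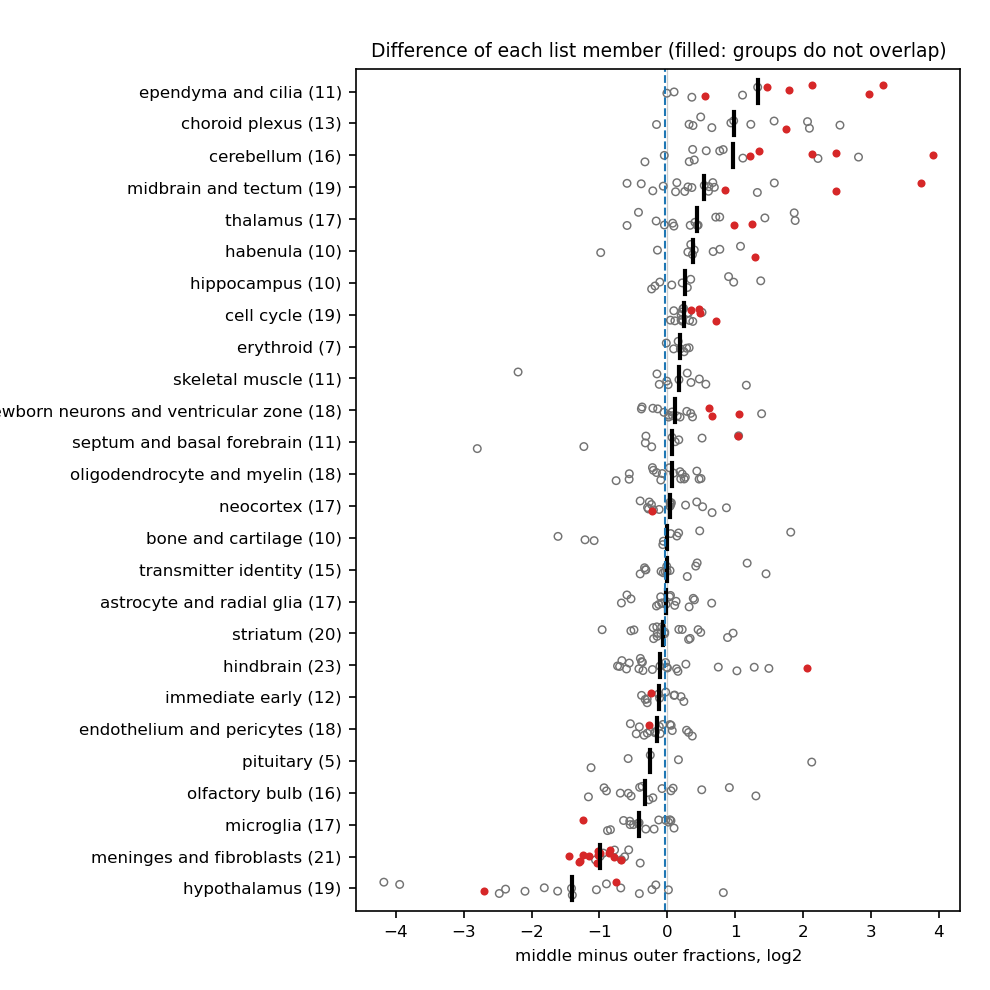
Each point is the difference of 1 gene, middle minus outer fractions on the log2 scale (horizontal axis), in 26 lists of marker genes (vertical axis, with the number measured). Filled points are genes whose groups do not overlap, black bars are list medians and the dashed line is the median of all genes. The list of meninges and fibroblasts lies wholly left of 0, while 10 of 11 genes of ependyma, 12 of 13 of choroid plexus and 14 of 16 of cerebellum lie right of it.

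In place of 2 groups, the square of the distance of each fraction from the centre of the series was fitted together with a straight line. This called 35 genes (0.222%) higher towards the middle and 212 genes (1.35%) higher towards both ends at a limma adjusted p under 0.05 (74 probes, 0.221%, and 266 probes, 0.795%), where the comparison of groups called none. In the list of meninges and fibroblasts 15 of 21 genes passed towards both ends, among them Foxc2 (adjusted p = 0.0181) and Col1a1 (adjusted p = 0.0230), and in the border macrophage list 11 of 12. Of these, 2 and 0 passed without fraction 1, and 0 and 0 with slide as a block. In the microglia list 3 of 17 passed towards both ends (Tmem119, Mrc1 and Pf4). All 15 genes of both ends with the largest differences passed, Fgfbp1 with the lowest adjusted p (0.00851). Having been chosen on the same fractions, these 15 were not tested independently. No gene of the choroid plexus or ependyma list passed, and in the Cfap family only Cfap43 did. With slide as a block the fit called 0 genes higher towards the middle and 1 towards both ends, Fgfbp1 (0.00635% of genes and 0.00299% of probes), and within 1 slide it called 0 in either direction. Without fraction 1 it called 20 genes (0.127%) towards the middle and 15 (0.0952%) towards both ends, or 0.0926% and 0.0478% of probes. Of the 212 genes 15 and of the 35 genes 1 were still called. Those 20 included Ttr (adjusted p = 0.0482), Kcne2 (adjusted p = 0.0395), a potassium channel subunit of the choroid plexus, Cfap65 (adjusted p = 0.0327) and Ak7, an adenylate kinase of cilia. All 212 genes kept the sign of their difference within 1 slide. They had been called on fractions that include those of this slide. A kept sign was therefore largely fixed by that choice and is no independent support.

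The sagittal and coronal series allowed the same genes to be read in other mice. In the sagittal series, inner fractions 4 to 8 were set against outer fractions 1 to 3 and 9 to 11 with the fraction number as a covariate. This comparison was added after the data had been seen. There 6.96% of all genes passed as higher in the outer fractions (limma adjusted p under 0.05). Of the genes of both ends 118 of 413 passed in that direction, 28.6%, and 3 in the other. Of the 21 genes of meninges and fibroblasts 18 passed, and 11 of 12 of border macrophages, for instance Fmod (-1.14, adjusted p = 0.0121), Foxc2 (-1.04, adjusted p = 0.0127) and Pf4 (-1.15, adjusted p = 0.0172). Fractions 1, 10 and 11 of that series were on other slides, and among the fractions 2 to 9 of 1 slide all 21 meningeal genes were again lower in the inner ones (median -0.83). The neocortex list, which was not high at both horizontal ends, also had 12 of 17 genes higher in the outer sagittal fractions. Within the 1 slide all 17 neocortex genes (median -0.71) and 73 of 75 ribosomal protein genes were lower in the inner fractions too. Of 19 midbrain genes 0 were. The lower inner values were therefore not particular to the meninges. In the coronal series, with inner fractions 5 to 11, none of the 21 passed as higher in the outer fractions, where 8.09% of all genes did. Of the genes of both ends 25 of 414 passed there (6.04%), below the background, and 47.1% were highest in coronal fractions 14 or 15, against 24.1% of all genes.

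Middle genes differed in coronal position, and 42 of 331 (12.7%) passed as higher in the inner and 56 (16.9%) in the outer coronal fractions, against 8.83% and 8.09% of all genes. In the sagittal series 28 of 328 (8.54%) passed as higher in the inner fractions, against 6.81%. Of 331 genes 133 were highest in coronal fractions 1 to 3 (40.2%, against 18.3% of all genes), and 83 of these peaked in horizontal fraction 4. Atoh1, En2, Skor2, Neurod1 and Car8 were of this set. Another 82 were highest in coronal fractions 9 or 10 (24.8%, against 6.44%), 64 of these in horizontal fraction 5 and 58 in sagittal fraction 6, the centre of that series. This set held Tmem212, Ccdc153, Foxn4, Foxj1, Dynlrb2, Ccno and 7 of the 8 Cfap genes with groups apart, and its median horizontal difference was 1.20, against 0.51 for the former set. Over all middle genes 138 of 328 were highest in sagittal fraction 6 (42.1%, against 10.9% of all genes). Inner against outer sagittal fractions gave no call for the 11 genes of ependyma and cilia (median 0.06). Of the 13 choroid plexus genes 11, Ttr among them, were highest in coronal fraction 3, none in coronal fractions 9 or 10, and 8 in sagittal fraction 10.

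**Figure D3:**
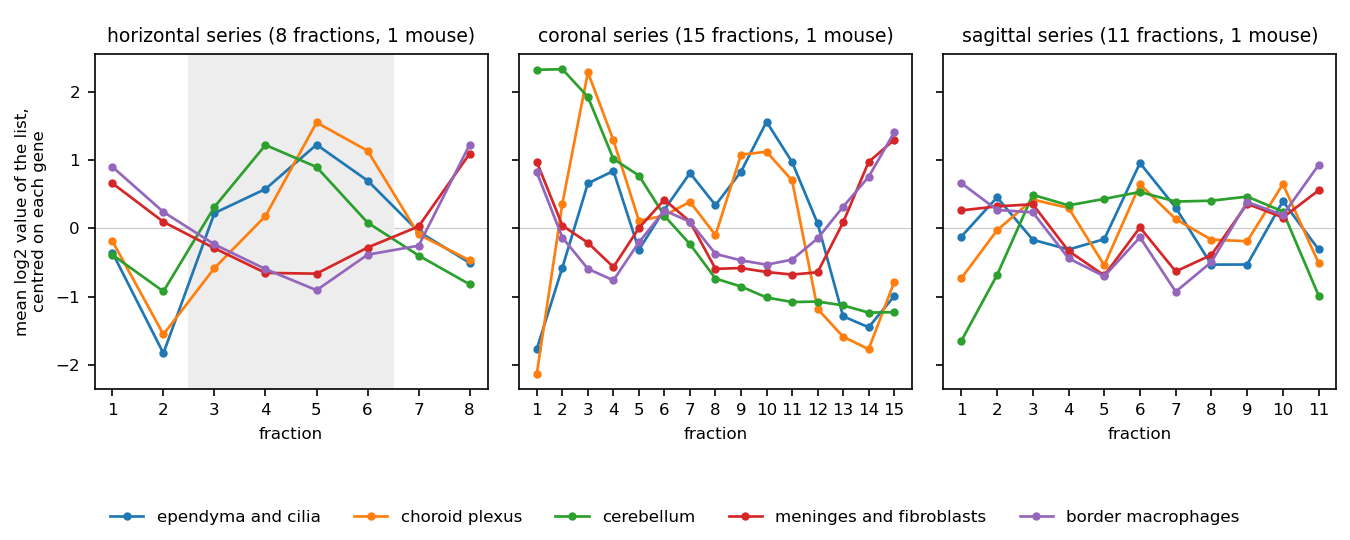
Mean log2 value of 5 gene lists, each gene centred on its own mean (vertical axis), along the fractions of the horizontal, coronal and sagittal series (horizontal axes), each from 1 mouse, with the horizontal middle fractions shaded. In the horizontal series meninges and border macrophages were lowest in fraction 5, where ependyma and choroid plexus were highest. They were not opposed in every fraction: in fraction 3 choroid plexus (-0.58) and meninges (-0.29) were both below their mean.

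**Figure D4:**
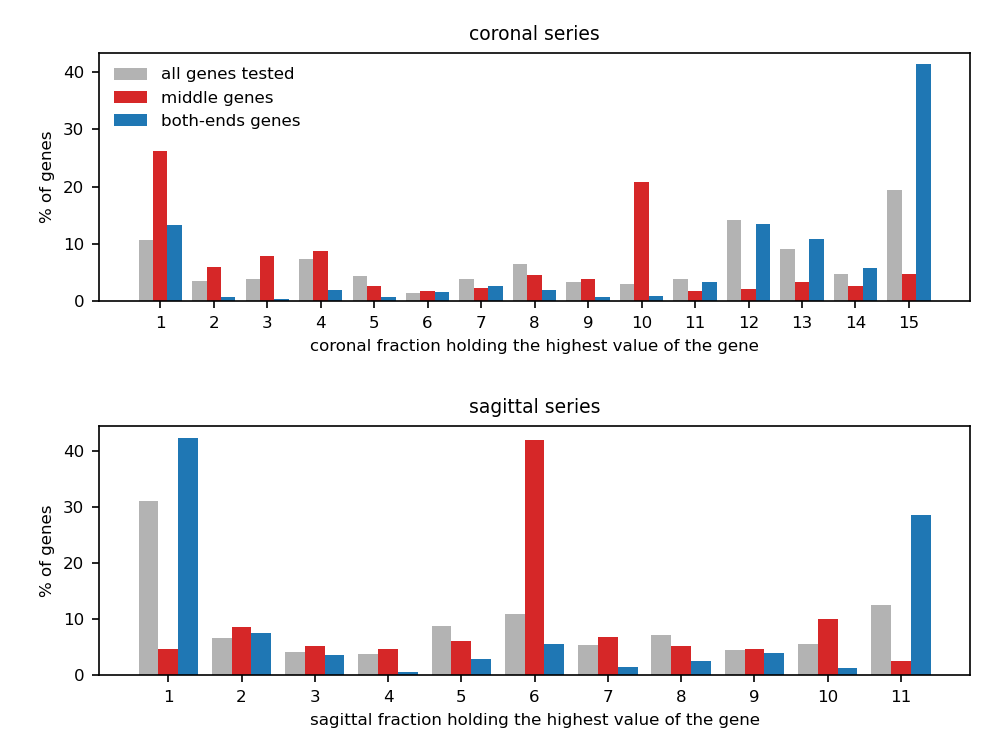
Share of genes (vertical axis, %) whose highest value lies in each fraction (horizontal axis) of the coronal and sagittal series, for all genes tested, the middle genes and the genes of both ends of the horizontal series. Middle genes stand out in coronal fractions 1 and 10 and in sagittal fraction 6, and genes of both ends in coronal fraction 15 and sagittal fractions 1 and 11.

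Some genes with large differences had only weak signals or conflicting probes. Spata18, a mitochondrial quality control gene, had the lowest adjusted p of the comparison of groups (0.0644). It was not well above background in any outer fraction, read -4.23 to -3.40 in the middle, and was at least 2.67-fold higher there. Dlx4, a distal-less homeobox gene, was at least 3.84-fold higher in the middle by the same rule (adjusted p = 0.269). The faint probes Gm5901, Gm5294 and Ugt3a2 were each well above background in 2 outer fractions and in no middle fraction. Gm5901 was bright at 1 end, with -3.46 and -3.65 in fractions 1 and 2 against -4.94 and -5.18 in fractions 7 and 8, and Gm5294 was brightest in fractions 7 and 8. Nek5, a NIMA related kinase, differed by 2.33 on its brightest probe and had another probe of the opposite sign, and Cux1, the only neocortex gene with groups apart (-0.22), had 2 such probes. Other genes among the 15 largest in the middle were Arhgef33 (2.36) and Tex22 (2.31), both with 3 of 4 outer fractions well above background, Defb11 (2.16) and Ucma (2.16), and among those of both ends Dapl1 (-1.47), Asgr1 (-1.46), Mmp23 (-1.38), H2-Q1 (-1.34), Lypd2 (-1.34) and Ptgfr (-1.33).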

How the data were processed

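Total RNA of each fraction was labelled with Cy3 and hybridised to Agilent SurePrint G3 mouse arrays. The authors deposited scanner files of Agilent Feature Extraction 10.10.1.1, with intensity per spot, and a table of log2 values for 43199 probes. Tested on the files, 99.9% of the deposited log2 values lay within 0.02 of the log2 scanner signal after subtraction of a single number for every array, close to the 75th percentile. Probes were named through RefSeq accessions (23369 of 43199), with 1 probe for each gene, the brightest over the 8 fractions. Probes well above background, as flagged in the deposited files, in at least 2 of 8 fractions were tested with limma 3.58.1 in R 4.3.3 on group and fraction number, with Benjamini-Hochberg adjustment, two-sided; the code was checked on simulated data. Genes named were the 15 largest differences in each direction among genes with groups apart and well above background in at least 2 fractions of each group, up to 5 in each direction below background in the lower group, and members of the lists; some of these genes are not reported here. For the latter, a bound compares the mean of the higher group with the mean, over arrays of the lower group, of the higher of the dimmest detected probe and the measured value. Members, lists and tests were chosen with earlier results of these data known. Alternatives were other scalings, filters, slide, distance and leaving out fractions. The number of arrays limits the precision.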

Additional observations from a re-analysis of the deposited data

Results flagged for a closer look

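The mean of the 17 astrocyte and radial glia genes, each centred on its own mean, was low in fraction 2 compared with the other outer fractions (-0.48 against 0.11, 0.21 and 0.20 in fractions 1, 7 and 8). The gap to the nearest value, divided by the range of the 4, was 0.856, above Dixon's critical value for 4 values. In all, 120 groups of 4 values were searched and 1 stood out, where chance gives about 1 in 20.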

How the results depend on the processing

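No paired analysis was possible because fraction numbers mark positions and the groups compared share none of them. Of 679 differences of the 30 genes with the largest differences under 23 alternatives all 679 kept their sign and 21 passed the threshold. These genes were chosen on the same fractions for groups that lay apart. A kept sign was therefore largely fixed by that choice and is no independent support. The count of probes higher in the middle was 0 except with slide as a block (4 probes without a gene name), squared distance (74) and squared distance without fraction 1 (31, chosen after seeing the data). Probes higher in the outer fractions were 0 except with squared distance (266), and, chosen after seeing the data, squared distance with slide as a block (1) and without fraction 1 (16). Leaving out 1 fraction gave 0 to 0 calls in either direction. Probes with all middle above all outer fractions were 624, but 1770 within 1 slide and 1318 without fractions 1 and 8, and between 755 (without fraction 5) and 2060 (without fraction 7) when 1 fraction was left out; those with all outer above all middle were 802, but 2540, 2542 and between 975 (without fraction 4) and 3147 (without fraction 7). Fewer fractions make separation easier by construction. Under another scaling, by the array median, 447 of the 624 and 551 of the 802 remained, and under normexp with quantile normalization 445 and 483. Of 598 list medians 14 moved by more than 1 SD of the list mean over fractions, among them the choroid plexus within 1 slide (2.08, with fraction number as a covariate), the meninges without fractions 1 and 8 (-0.58), the microglia likewise (-0.14) and the midbrain likewise (-0.03). Dim probes limit the rest: 28019 of the 33460 were well above background in all 8 fractions.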

Other observations

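Ribosomal protein genes, counted by symbol after the data had been seen, were slightly lower in the middle (median -0.21, 1 of 75 higher). Only 2 of the 75 had all outer above all middle fractions (Rpl21 and Rpl39l), near the share of all genes (2.64%). The lower median depended on the scaling. After quantile normalization the median was -0.03 with 23 of 75 higher, and after normexp background correction with quantile normalization -0.02 with 27 of 75 higher. In the sagittal series 24 of the 75 passed as higher in the outer fractions, where 6.96% of all genes did.

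Of 6196 tested probes for long non-coding RNA regions, named by position in the array design, 100 (1.61%) had all middle above all outer fractions and 177 (2.86%) the reverse, against 1.92% and 2.29% of the other probes. The difference was not tested.

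Red blood cell genes were not high at both ends. Hba-a1, alpha globin, read 5.18, 4.51, 3.83, 3.77, 3.90, 4.86, 3.31 and 3.42 in fractions 1 to 8, and none of 7 genes of the erythroid list had groups apart (median 0.19). Of 11 skeletal muscle genes none did so either (median 0.17).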
